A study of Mus musculus with 2 samples.

Results

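The genes described here are 40 genes of the extracellular matrix other than collagens, among 43346 genes in the deposited tables of a total RNA sequencing study of mouse intestine. They were taken as a set list, which was chosen with earlier results of these data known. They were grouped by role: 18 genes of elastic fibres and their assembly, 6 small leucine-rich proteoglycan genes, 5 genes of hyaluronan and its partners, 7 matricellular genes, and 4 core proteins of cell-surface heparan sulphate proteoglycans. All 40 were found in both tables by their GENCODE symbol, each with a single identifier.

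The data were 2 libraries of whole intestine from B6NCrl mouse embryos at embryonic day 14.5, with no treatment, mutation or other group. Replicate 2 was collected on day 15 of a month and replicate 1 on day 17, and the labels describe each as the single intestine of pup 1 of pregnant dam 2, while giving the sex as pooled male and female and a shared donor record. The starting material of each library was 10 ng of RNA over 200 nucleotides in size. Because there was no contrast, levels are given with the SD of the 2 libraries (n = 2), no p-value was computed, and that SD holds biological and technical spread together.

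Elastic fibres are built by depositing tropoelastin on a scaffold of fibrillin microfibrils and joining its chains through lysyl oxidases, with fibulins and latent TGF-beta binding proteins organising the assembly. Small leucine-rich proteoglycans bind fibrillar collagen and growth factors, hyaluronan and versican make a hydrated matrix in loose mesenchyme, and glypicans and syndecans carry heparan sulphate chains that bind Hedgehog, Wnt and Fgf ligands at the cell surface. In the embryonic gut many of these products come from the mesenchyme around the epithelial tube, from which fibroblasts and smooth muscle arise. Others, such as the syndecan Sdc1, are also made by epithelia.

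The libraries held 32371363 estimated reads in genes in replicate 2 and 32938592 in replicate 1, and the spike-in RNAs took 10.4% of the TPM (the deposited level per length of transcript, as a share of the library) in replicate 2 and 9.77% in replicate 1. The tissue label was checked against marker lists. All 7 markers of gut epithelium were detected, as were 6 of 6 of smooth muscle and 5 of 6 of fibroblasts, with Dpt under 1 TPM in both libraries. Of lists for other tissues, 3 of 5 cartilage, 2 of 3 liver and 1 of 4 skeletal muscle markers were also detected. Detection alone was therefore a weak check of the label. The libraries stood apart in other genes: 6 pancreas markers summed to 1073 TPM in replicate 2 and 3.72 TPM in replicate 1, and Xist, the non-coding RNA of the silenced X chromosome, had 0.06 TPM in replicate 2 and 77.2 TPM in replicate 1, with the 4 Y-linked markers at 1 count or fewer in replicate 1. All values below are from whole tissue, in which fewer cells of a type and less RNA per cell cannot be told apart.

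Most of the matrix genes were expressed, and many were among the abundant transcripts of the tissue. Because the 40 genes were chosen with earlier results of these data known, the comparisons here describe this list and do not test it. Of the 40 genes, 36 (90%) were detected, meaning at least 1 TPM in both libraries, against 61.3% of 21474 protein-coding genes and 34.2% of all genes. Their median level was 29.9 ± 1.40 TPM, against 4.90 ± 0.035 TPM over all protein-coding genes, and 31 of the 40 lay above that protein-coding median. A mean of 100 TPM or more was reached by 9 of the 40 (22.5%), against 6.76% of protein-coding genes. Another 20 lay from 10 to 100 TPM, 7 from 1 to 10 TPM and 4 under 1 TPM. The 40 genes together took 0.419% of the TPM of all genes in replicate 2 and 0.446% in replicate 1. Their summed level was concentrated in a few genes, with 64.6% of it in the 5 highest and 28.6% in Sparc alone.

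**Figure D1:**
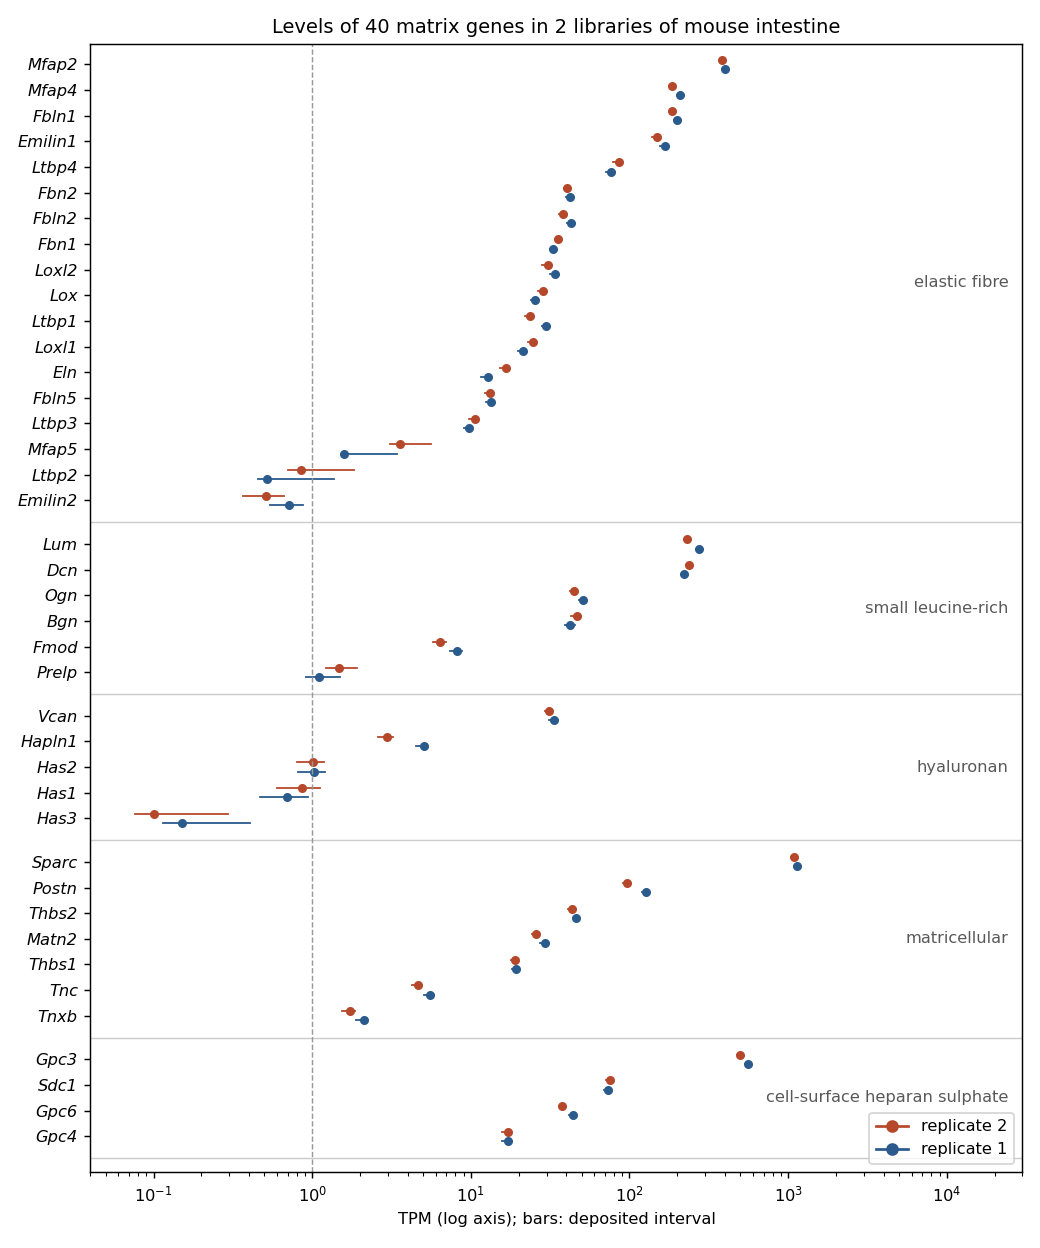
TPM of each of the 40 matrix genes on a log axis, by group and in falling order within the group, with replicate 2 above replicate 1 in each row and bars for the deposited interval of each library. The genes run from about 1111 TPM for Sparc down to 0.125 TPM for Has3, and in most rows the points of both libraries lie close together; the dashed line marks 1 TPM.

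The order of levels was led by Sparc, Gpc3 and Mfap2, each apart from the next by more than the spread of the libraries. Of the 39 neighbouring pairs in the order, 22 had ranges that did not overlap. Neighbours that did not differ beyond that spread included Lum and Dcn, Mfap4 and Fbln1, the run of Ogn, Thbs2 and Bgn, the run of Fbn1, Loxl2 and Vcan, and the run of Matn2, Lox, Ltbp1 and Loxl1.

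Among the elastic fibre genes the microfibril components Mfap2 and Mfap4 had the highest means, and the tropoelastin gene Eln lay below the group median. The 18 genes had a median of 29.6 ± 1.40 TPM and 16 were detected. Mfap2 (ENSMUSG00000060572.13, GRCm38 chr4:141010418-141015984, plus strand), a microfibril-associated glycoprotein that binds fibrillin and tropoelastin, had 383 TPM in replicate 2 and 402 TPM in replicate 1. Mfap4, an integrin-binding glycoprotein of microfibrils, had 186 TPM in replicate 2 and 209 TPM in replicate 1. The level of Mfap5, the close relative of Mfap2, was 3.55 TPM in replicate 2 and 1.58 TPM in replicate 1, from 82 and 52 estimated reads. Mfap2 was thus among the highest of the 40 genes and Mfap5 among the lowest.

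The fibrillins, the backbone of the microfibril, were both expressed at like levels. Fbn2, the fibrillin best known from embryonic tissue, had 40.1 TPM in replicate 2 and 41.9 TPM in replicate 1, and Fbn1, which persists in adult tissue, had 35.3 TPM in replicate 2 and 33.0 TPM in replicate 1. The ranges of these 2 genes did not overlap. Eln, which encodes tropoelastin, had 16.7 TPM in replicate 2 and 12.8 TPM in replicate 1, a mean of 14.8 ± 2.79 TPM. Its level was therefore below that of both fibrillins in each library. The deposited tables hold a single Eln transcript of 2583 bases, close to its coding sequence of 2580 bases, whereas the longest coding Eln transcript in the later GENCODE M21 annotation has 3853 bases, so Eln reads from outside the coding exons had no place in that model.

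The fibulins bridge fibrils, basement membranes and elastin. Fbln1 (chr15:85205949-85286535, plus strand) had 184 TPM in replicate 2 and 200.2 TPM in replicate 1, the highest of the 3. Fbln2 had 37.9 TPM in replicate 2 and 42.9 TPM in replicate 1. Fbln5, which binds tropoelastin and Loxl1 and is needed for elastic fibres in mice, had 13.1 TPM in replicate 2 and 13.5 TPM in replicate 1. Emilin1, an elastin-associated glycoprotein that restrains TGF-beta processing, had 149 TPM in replicate 2 and 167 TPM in replicate 1. Its relative Emilin2 was under the detection level, with 46 estimated reads in replicate 2 and 63 in replicate 1.

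The lysyl oxidases, copper enzymes that cross-link elastin and collagen, had 3 members at similar levels, with Loxl3 and Loxl4 lower, as given further on. Loxl2 had 30.7 TPM in replicate 2 and 34.03 TPM in replicate 1. Lox, the founding member, had 28.3 TPM in replicate 2 and 25.4 TPM in replicate 1. For Loxl1, the form tied to elastin, the values were 24.7 TPM in replicate 2 and 21.3 TPM in replicate 1. The ranges of Lox and Loxl1 did not overlap, while that of Loxl2 lay above both.

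The latent TGF-beta binding proteins hold the inactive growth factor in the matrix, and their 4 genes spanned 2 orders of magnitude. Ltbp4 led with 85.5 TPM in replicate 2 and 76.7 TPM in replicate 1. Ltbp1 had 23.5 TPM in replicate 2 and 30.0 TPM in replicate 1, and Ltbp3 had 10.6 TPM in replicate 2 and 9.78 TPM in replicate 1. Ltbp2, which does not bind latent TGF-beta and competes with Ltbp1 for fibrillin, was below 1 TPM, with 92 estimated reads in replicate 2 and 56.3 in replicate 1. Ltbp1 and Ltbp4 each have an upstream and a downstream start that give proteins with a longer or a shorter amino-terminal end, and the transcript tables separate them.

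For Ltbp1 the starts were used at similar levels, and for Ltbp4 the downstream start dominated. The coding Ltbp1 transcript from the upstream start, with 1712 codons, had 10.1 TPM in replicate 2 and 10.5 TPM in replicate 1. The 3 coding Ltbp1 transcripts from the downstream start, with up to 1394 codons, summed to 10.5 TPM in replicate 2 and 14.7 TPM in replicate 1. In replicate 2 the starts were thus nearly level, and in replicate 1 the downstream start was higher. Ltbp4 transcripts from the upstream start, with 1666 codons, had 3.82 TPM in replicate 2 and 4.31 TPM in replicate 1. Those from the downstream start, with up to 1600 codons, summed to 55.4 TPM in replicate 2 and 47.0 TPM in replicate 1. The higher start of Ltbp4 was the same in both libraries and lay far above the other.

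**Figure D2:**
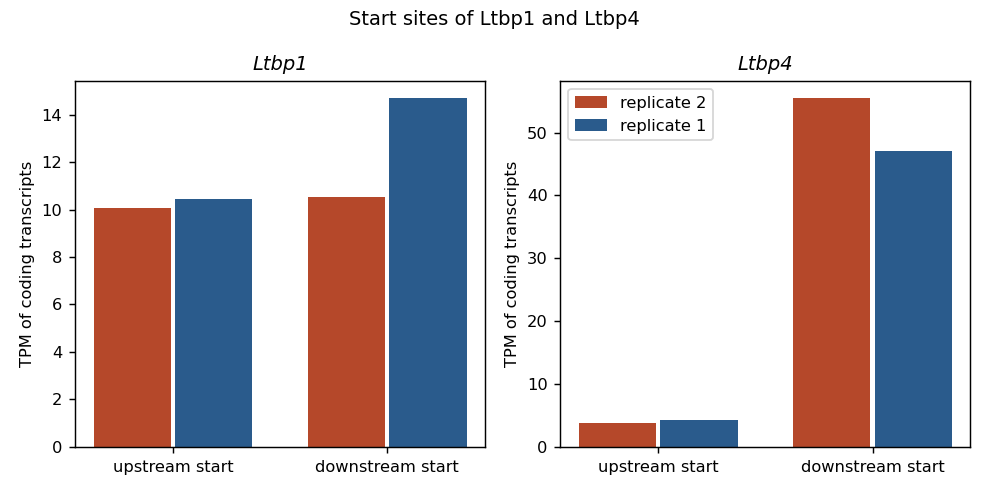
Summed TPM of the coding transcripts from the upstream and the downstream start of Ltbp1 (left panel) and Ltbp4 (right panel), with replicate 2 left of replicate 1 in each pair of bars; the panels have different vertical scales. The Ltbp1 bars lie between 10.1 and 14.7 TPM, while the Ltbp4 bars are at 3.82 and 4.31 TPM for the upstream start and at 55.4 and 47.0 TPM for the downstream start.

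The bases before these 4 starts are shown because the same pair of genes uses its starts differently. They come from the RefSeq promoter table (GRCm38.p6), read 5′ to 3′ on the strand of the gene, and end at the base before the start given by RefSeq, or by GENCODE M21 where that lies further upstream, as it does for the upstream start of Ltbp4, which leaves 170 bases there. Capitals mark matches to CCAAT, the core of the CCAAT box, and to GGGCGG, the core of the GC box, with a match on the opposite strand shown as its reverse complement. The TATA-box core TATAAA was searched on both strands as well and was in none of the 4 stretches. Some matches to the GC-box core overlap each other.
Ltbp1 upstream start, chr17:75005279-75005528, plus strand: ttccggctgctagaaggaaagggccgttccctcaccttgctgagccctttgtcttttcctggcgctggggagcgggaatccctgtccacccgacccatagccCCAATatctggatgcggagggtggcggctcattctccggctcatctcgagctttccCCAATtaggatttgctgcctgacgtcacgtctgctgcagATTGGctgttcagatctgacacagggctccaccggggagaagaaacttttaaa
Ltbp1 downstream start, chr17:75178531-75178780, plus strand: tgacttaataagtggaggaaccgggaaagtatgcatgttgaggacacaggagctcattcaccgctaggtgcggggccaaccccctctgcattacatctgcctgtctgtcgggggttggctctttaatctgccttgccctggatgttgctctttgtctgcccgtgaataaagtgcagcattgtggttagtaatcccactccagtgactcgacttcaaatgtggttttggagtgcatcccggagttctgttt
Ltbp4 upstream start, chr7:27337693-27337862, minus strand: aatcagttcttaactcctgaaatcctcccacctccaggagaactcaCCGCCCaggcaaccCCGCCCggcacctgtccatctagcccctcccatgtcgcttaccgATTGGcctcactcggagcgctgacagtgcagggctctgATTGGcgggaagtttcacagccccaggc
Ltbp4 downstream start, chr7:27333664-27333913, minus strand: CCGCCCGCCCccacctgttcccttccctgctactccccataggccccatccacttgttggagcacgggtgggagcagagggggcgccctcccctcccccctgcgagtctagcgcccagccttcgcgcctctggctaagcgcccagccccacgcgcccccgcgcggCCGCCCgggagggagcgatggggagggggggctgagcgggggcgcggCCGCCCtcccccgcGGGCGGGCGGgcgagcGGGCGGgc

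These upstream sequences differed in base composition and in motifs. The Ltbp4 downstream start, the one with the highest level, followed 250 bases with 79.2% G and C, 7 GGGCGG matches and 0 CCAAT matches. The Ltbp4 upstream start had 60.6% G and C, 2 GGGCGG and 2 CCAAT matches. The Ltbp1 upstream start had 56.8% G and C with 3 CCAAT matches, and the Ltbp1 downstream start had 50.8% with no match to any of the 3 motifs. The most highly expressed transcript from that downstream start, Ltbp1-202, begins at 75178911 in GENCODE M21, further along than the start in RefSeq at 75178781. A motif match is a description of these letters and no evidence of a bound factor. Over all 27025 genes with a promoter window, CCAAT was in the 250 bases before a start of 37.5% and GGGCGG of 35.4%. Of the 40 matrix genes 26 had a window, and of those 38.5% held CCAAT, 53.8% held GGGCGG and 15.4% held TATAAA, the last against 14.3% of all genes. The median share of G and C was 56.5% for the matrix genes with a window and 52.4% for all genes.

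The small leucine-rich proteoglycan genes fell into an abundant pair, a middle pair and a low pair. The 6 genes had a median of 46.1 ± 0.894 TPM and all were detected. Lum, the keratan sulphate proteoglycan lumican, had 230.2 TPM in replicate 2 and 274 TPM in replicate 1. Dcn, the collagen-binding dermatan sulphate proteoglycan decorin, had 237 TPM in replicate 2 and 219.96 TPM in replicate 1. Dcn was thus slightly above Lum in replicate 2 and Lum above Dcn in replicate 1, and their ranges overlapped. Ogn (osteoglycin) had 44.6 TPM in replicate 2 and 51.2 TPM in replicate 1, and Bgn (biglycan), the close relative of decorin, had 46.3 TPM in replicate 2 and 42.2 TPM in replicate 1. Fmod, the relative of lumican that modulates collagen fibrils, had 6.38 TPM in replicate 2 and 8.17 TPM in replicate 1. Prelp, which also binds heparan sulphate, had 1.47 TPM in replicate 2 and 1.11 TPM in replicate 1.

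Genes of this family lie in clusters in the mouse genome, and their levels differed sharply within a cluster. On chromosome 10, Dcn (97479609 to 97518143) and Lum (97565128 to 97572703) are neighbours on the plus strand with 47.0 kb between them. Kera and Epyc, the keratocan and epiphycan genes further along the same cluster of 202.8 kb, were at 0.42 ± 0.0283 and 0.42 ± 0.0707 TPM. On chromosome 13, Ogn stood at 47.9 ± 4.69 TPM and Aspn (asporin) at 13.5 ± 0.389 TPM, while Omd (osteomodulin) had 0.28 ± 0.184 TPM and Ecm2 had 0.425 ± 0.290 TPM. On chromosome 1, Fmod had 7.28 ± 1.27 TPM, Optc (opticin) 1.49 ± 0.099 TPM and Prelp 1.29 ± 0.255 TPM. In each of these clusters the highest gene was thus several times above the lowest.

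In the hyaluronan group the proteoglycan was well above the enzymes that make its ligand. Vcan, which encodes versican, the large chondroitin sulphate proteoglycan that binds hyaluronan, had 31.1 TPM in replicate 2 and 33.3 TPM in replicate 1. Hapln1, the link protein that locks versican to hyaluronan, had 2.98 TPM in replicate 2 and 5.05 TPM in replicate 1. The hyaluronan synthases were all near or under the detection level. Has2, the main synthase of the mouse embryo, had 1.01 TPM in replicate 2 and 1.02 TPM in replicate 1, from 98 estimated reads in each. Has1 had 40 estimated reads in replicate 2 and 32 in replicate 1, and Has3 had 14 in replicate 2 and 20 in replicate 1. Has3 shares 352 exonic bases with Chtf8 on the other strand, whose level was 89.8 TPM in replicate 2 and 92.5 TPM in replicate 1, and reads from that stretch cannot be assigned unless strand was used in counting. The group median was 1.02 ± 0.00707 TPM. Hapln1 and Vcan are neighbours on chromosome 13, 43.7 kb apart on opposite strands, and differed 8.01-fold in mean level.

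Versican is made as splice forms that differ in 2 large exons carrying the chondroitin sulphate attachment regions. Here transcripts with the 5217-base exon were the main forms. Vcan-203, with both the 2880-base and the 5217-base exon (form V0), held 38.6% of Vcan TPM in replicate 2 and 40.1% in replicate 1. Vcan-206, with the longer exon alone (V1), held 29.1% in replicate 2 and 28.8% in replicate 1. The short form with neither exon, Vcan-201 (V3), held 22.4% in replicate 2 and 20.2% in replicate 1. Vcan-202, which carries the 2880-base exon alone (V2, the form best known from the nervous system), was listed at 0 in both libraries, with deposited intervals that reached 0.156 TPM in replicate 2 and 0.192 TPM in replicate 1. By estimated reads rather than per length, Vcan-203 took 61.4% in replicate 2 and 62.7% in replicate 1. Vcan-206 then took 30.9% in replicate 2 and 30.1% in replicate 1, and the short Vcan-201 only 6.40% and 5.70%.

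Matricellular genes, whose products sit in the matrix and act on cells and collagen without bearing load, held the highest level of all. The 7 genes had a median of 27.6 ± 2.37 TPM and all were detected. Sparc (ENSMUSG00000018593.8, chr11:55394500-55423183, minus strand), the calcium-binding collagen chaperone osteonectin, had 1082 TPM in replicate 2 and 1140 TPM in replicate 1, and ranked 85 among protein-coding genes. Postn (periostin), a fasciclin-domain protein of collagen-rich mesenchyme, had 96.0 TPM in replicate 2 and 127 TPM in replicate 1. As a ratio, its libraries were further apart than those of the other genes of this group. Thbs2 and Thbs1 encode trimeric thrombospondins, of which Thbs1 activates latent TGF-beta. Thbs2 had 43.1 TPM in replicate 2 and 46.3 TPM in replicate 1, and Thbs1 had 18.9 TPM in replicate 2 and 19.3 TPM in replicate 1. Matn2, a filament-forming matrilin of loose connective tissue, had 25.9 TPM in replicate 2 and 29.2 TPM in replicate 1. The tenascins were lower. Tnc, the hexameric tenascin of embryonic mesenchyme, had 4.62 TPM in replicate 2 and 5.51 TPM in replicate 1, and Tnxb, the tenascin of mature connective tissue, had 1.73 TPM in replicate 2 and 2.11 TPM in replicate 1.

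Cell-surface heparan sulphate proteoglycans had the highest group median, 57.5 ± 1.63 TPM, and all 4 were detected. Gpc3 (ENSMUSG00000055653.9, chrX:52272426-52613950, minus strand), a membrane-anchored glypican that binds Hedgehog and restrains growth in the mouse embryo, had 496 TPM in replicate 2 and 558 TPM in replicate 1. Its neighbour on the X chromosome, Gpc4, lies 107.2 kb away on the same strand and had 17.0 TPM in replicate 2 and 17.2 TPM in replicate 1. Gpc3 was therefore 30.8-fold above Gpc4 in mean level, the widest ratio among the 4 neighbouring pairs of matrix genes. Gpc6 had 37.3 TPM in replicate 2 and 43.8 TPM in replicate 1. Sdc1, the transmembrane syndecan of simple epithelia and some mesenchyme, had 75.3 TPM in replicate 2 and 73.4 TPM in replicate 1.

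Other genes of the same families and of the sugar chains they carry were less uniformly expressed. Of 92 listed names, 84 were in the tables, the others being Fbn3 and older or alternative names. Of those 84, 58 (69.0%) were detected, near the 61.3% of protein-coding genes, against 34.2% of all genes. The 84 had a median of 6.59 ± 0.615 TPM, against 4.90 TPM over all protein-coding genes. The 5 highest were Smoc2 with 155.7 ± 21.2 TPM and Sparcl1 with 132 ± 11.0 TPM, both relatives of Sparc, the sulphatase Sulf2 with 124 ± 0.269 TPM, the fibulin Efemp2 with 113 ± 9.41 TPM, which brings lysyl oxidase to tropoelastin, and Tgfbi with 112 ± 22.6 TPM, the relative of Postn. In the lysyl oxidase family Loxl3 had 10.5 ± 0.099 TPM and Loxl4 had 1.26 ± 0.205 TPM, below Lox, Loxl1 and Loxl2. In the fibulin family Efemp1 had 14.8 ± 0.445 TPM and Fbln7 had 5.28 ± 0.332 TPM. Among the syndecans Sdc4 had 83.9 ± 3.42 TPM, Sdc2 had 47.9 ± 3.98 TPM and Sdc3 had 15.8 ± 0.976 TPM, so Sdc4 stood above Sdc1. The other glypicans had lower means than Gpc6, with Gpc1 at 37.0 ± 0.658 TPM, a range that overlapped that of Gpc6, Gpc2 at 3.30 ± 0.905 TPM and Gpc5 at 0.135 ± 0.0778 TPM. The thrombospondins Thbs4 and Thbs3 had 26.5 ± 3.96 and 15.4 ± 0.0424 TPM, while Comp, of the same family, was not detected, with 0.45 ± 0.141 TPM. Every one of the 5 highest, like Sparc and Gpc3, was above 100 TPM in the mean of the libraries.

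For 5 matrix genes the level in the gene tables rested in part on transcripts with no coding sequence in GENCODE M21, which held at least 20% of the gene's TPM in both libraries. The main Sparc entry was Sparc-205, a retained-intron transcript of 741 bases, with 39.9% of Sparc TPM in replicate 2 and 42.2% in replicate 1. By estimated reads the same transcript held 17.3% in replicate 2 and 18.4% in replicate 1. The coding transcripts of Sparc, mainly Sparc-201 and Sparc-202, summed to 648 TPM in replicate 2 and 658 TPM in replicate 1, still the highest level of the 40 genes. Emilin1 had a transcript of 601 bases that is not in GENCODE M21, with 43.2% of its TPM in replicate 2 and 47.4% in replicate 1. Emilin1-201, its only transcript in M21, is coding and had 79.95 TPM in replicate 2 and 81.9 TPM in replicate 1. Whether the Emilin1 transcripts absent from M21 are coding is not given. For Ltbp4 the retained-intron transcript Ltbp4-208 of 550 bases held 30.2% in replicate 2 and 32.3% in replicate 1, but only 3.76% of estimated reads in replicate 2 and 4.14% in replicate 1. Fbln2-206 held 34.04% of Fbln2 TPM in replicate 2 and 40.4% in replicate 1, and Gpc6-203 held 23.7% of Gpc6 TPM in replicate 2 and 23.1% in replicate 1. With only the transcripts that are coding in GENCODE M21, mean levels were 653 ± 6.70 TPM for Sparc and 80.9 ± 1.40 TPM for Emilin1. They were 55.3 ± 5.61 TPM for Ltbp4, 31.1 ± 3.71 TPM for Gpc6 and 25.0 ± 0.368 TPM for Fbln2. For each of these 5 genes the SD in TPM was smaller over coding transcripts than over all transcripts, and so was the mean.

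**Figure D3:**
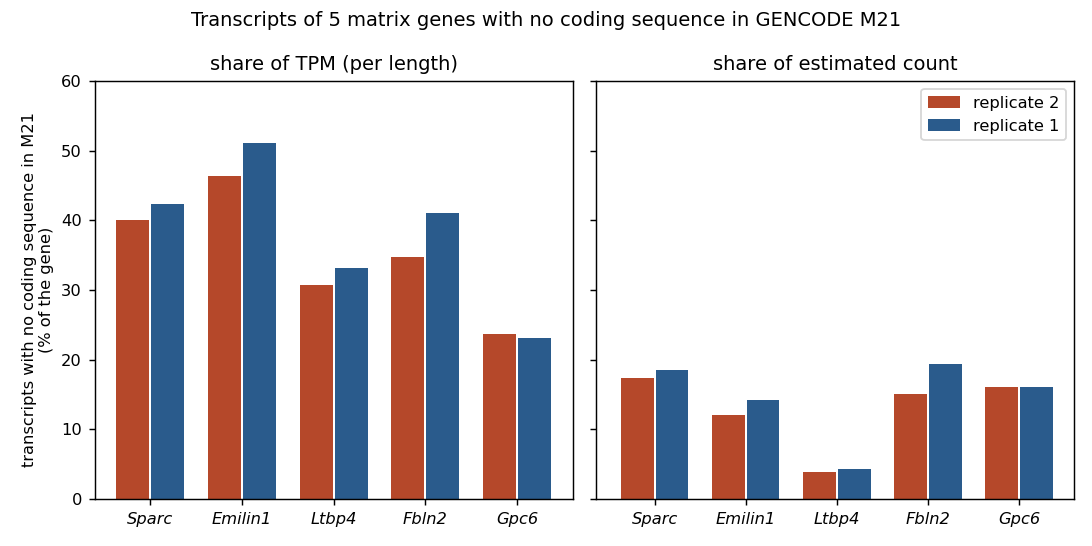
Share of 5 matrix genes, in per cent, that was assigned to transcripts with no coding sequence in GENCODE M21, by TPM (left panel) and by estimated reads (right panel), with replicate 2 left of replicate 1. The bars by TPM lie between 23.1% for Gpc6 and 51.1% for Emilin1, and the bars by estimated reads are lower for every gene and library shown.

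The main forms of Postn, Fbln1, Tnc, Loxl2, Sdc1 and Matn2, those named here, kept their order by TPM between the libraries. Postn forms differ in small cassette exons of the carboxy-terminal region. Postn-204, which lacks exons 17 and 21 (81 and 84 bases), held 42.3% of Postn TPM in replicate 2 and 42.3% in replicate 1. Postn-203, without exon 21 alone, held 29.2% in replicate 2 and 31.1% in replicate 1, and Postn-201, without exon 17 alone, held 18.6% in replicate 2 and 17.5% in replicate 1. Postn-202, with both exons, was listed at 0 in both libraries. Forms lacking at least 1 of these exons therefore carried most of the Postn level.

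Fbln1 is known for carboxy-terminal forms C and D. Fbln1-202, of 685 codons, held 88.2% of Fbln1 TPM in replicate 2 and 87.2% in replicate 1, and Fbln1-201, of 705 codons, held 11.4% in replicate 2 and 12.9% in replicate 1. Tnc-203, the only full-length Tnc form in the tables that carries exon 14 (273 bases, the length of the neighbouring exons of the alternatively spliced fibronectin type III stretch), held 24.2% in replicate 2 and 35.8% in replicate 1. Tnc-204 without it held 54.2% in replicate 2 and 52.8% in replicate 1. Tnc-201, also without it, held 21.6% in replicate 2 and 11.4% in replicate 1, so forms without exon 14 held most of the Tnc TPM. At 4.62 and 5.51 TPM the intervals of these Tnc forms were wide, from 0.529 to 1.82 TPM for Tnc-203 in replicate 2 and from 1.23 to 2.71 TPM in replicate 1.

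Other genes changed form outside or inside the coding sequence. The Loxl2 forms Loxl2-202 and Loxl2-201 have the same 776 codons and differ in their ends, and Loxl2-202 held 62.8% of TPM in replicate 2 and 66.1% in replicate 1, but 48.8% of estimated reads in replicate 2 and 52.3% in replicate 1. The Sdc1 forms have coding sequences of equal length, with Sdc1-201 at 61.2% in replicate 2 and 61.6% in replicate 1 and Sdc1-205 at 37.9% in replicate 2 and 37.4% in replicate 1. Matn2-201, of 937 codons, held 74.6% in replicate 2 and 80.3% in replicate 1, and Matn2-202, of 957 codons, held the rest. Of the 40 genes, 13 have 1 transcript in the deposited tables, among them Eln, Fbn2, Lum and Thbs2, and for these no splice form can be seen. The largest change in the share of a main transcript between the libraries, among genes at a mean of 10 TPM or more, was 8.38 percentage points, for Fbln2-202.

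**Figure D4:**
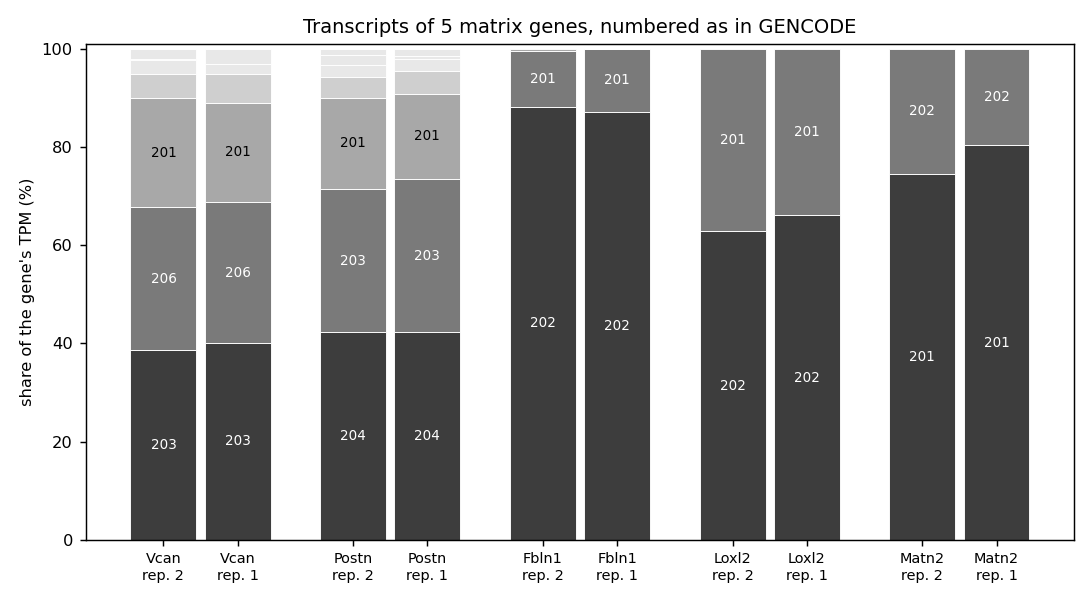
Share of TPM, in per cent, of each transcript of Vcan, Postn, Fbln1, Loxl2 and Matn2, stacked from the most abundant upwards, with replicate 2 left of replicate 1 and the GENCODE number of each main transcript on its segment. The order of the numbered transcripts is the same in both libraries for each of the 5 genes.

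Between the libraries the matrix genes differed by little, and the excess of genes lower in replicate 2 depended on the scaling. Differences are log2(TPM + 1) of replicate 2 minus replicate 1. A gene was counted as differing when its mean was at least 5 TPM, the difference was at least 1 and the deposited intervals did not overlap: 0 of the 31 matrix genes at that level met this, against 0.495% of all 11324 genes at that level (0.45% higher and 0.0442% lower in replicate 2). The widest ratio among the 31 was 1.32-fold, for Postn. Smaller separations were common, since the deposited intervals did not overlap for 22 of the 31 (71.0%; 5 higher and 17 lower in replicate 2), against 25.2% of all genes at that level (7.23% higher and 17.9% lower). The split by direction depended on the scaling: 7 of the 31 were apart and higher and 11 apart and lower with TMM (1371 higher and 1205 lower among all genes), 6 and 11 with DESeq2 size factors (1345 and 1226), and 1 and 19 with spike-in scaling (350 and 4162). The intervals narrow with read number, and at a mean of at least 1000 estimated reads they were apart for 19 of 28 matrix genes (67.9%; 4 higher and 15 lower in replicate 2), against 31.3% of all genes (8.12% higher and 23.1% lower). Over the 36 genes at a mean of 1 TPM or more the median difference was -0.09, with 25 lower and 11 higher in replicate 2, against a median of -0.04 over all 15411 genes at that level, of which 59.8% were lower.

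By group, the matricellular genes were lower in replicate 2 in 7 of 7, with a median difference of -0.17, and the cell-surface proteoglycan genes in 3 of 4. The hyaluronan genes at a mean of 1 TPM or more were also lower in 3 of 3, with a median of -0.096. That was 2 of 3 with TMM and with DESeq2 size factors, and 3 of 3 with spike-in scaling. For these scalings the TPM of replicate 2 was multiplied by a single factor, 1.035 with TMM and 1.034 with DESeq2 size factors. With either, 6 of the 7 matricellular genes were lower, with a median of -0.12 in each case. Of the 36 genes, 21 (58.3%) were lower, against 49.5% of all genes with TMM and 49.7% with DESeq2 size factors. The cell-surface proteoglycan genes were lower in 2 of 4 with TMM and with DESeq2 size factors, and in 4 of 4 with spike-in scaling. The elastic fibre genes were mixed, with 9 lower and 7 higher, and their median of -0.05 was 0.00 with TMM. Small leucine-rich genes were 3 lower and 3 higher under each of the scalings. Spike-in scaling left 7 of 7 matricellular genes lower, and 26 of the 36 genes (72.2%), against 75.0% of all genes. The fibroblast markers summed to 2610 TPM in replicate 2 and 2748 TPM in replicate 1. For smooth muscle markers the sums were 3187 TPM in replicate 2 and 3404 TPM in replicate 1. For epithelial markers they were 1783 TPM in replicate 2 and 1653 TPM in replicate 1. Single markers did not all follow these sums. Among fibroblast markers Col1a1, Col1a2 and Twist1 were higher in replicate 2, while Col3a1, Pdgfra and Dpt were lower. Des was slightly higher and Epcam slightly lower in replicate 2, unlike the other markers of their lists. The part of tissue make-up, of the pancreas transcripts and of embryo sex in the small differences of the matrix genes was not tested.

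The widest differences were those of Mfap5, Hapln1, Postn, Eln and Ltbp1. Hapln1, with 347 estimated reads in replicate 2 and 581 in replicate 1, differed by -0.60 with intervals apart, and 6.36% of the 1807 genes with a mean from 3 to 6 TPM had a larger difference in either direction. Mfap5 differed by 0.82, but on 82 and 52 estimated reads and with overlapping intervals. Postn differed by -0.40 and Ltbp1 by -0.34, both with intervals apart. Eln was higher in replicate 2, by 0.36, also with intervals apart. The X-linked members Bgn, Gpc3 and Gpc4 differed by 0.13, -0.17 and -0.01 in the libraries with and without the Y-linked transcripts.

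**Figure D5:**
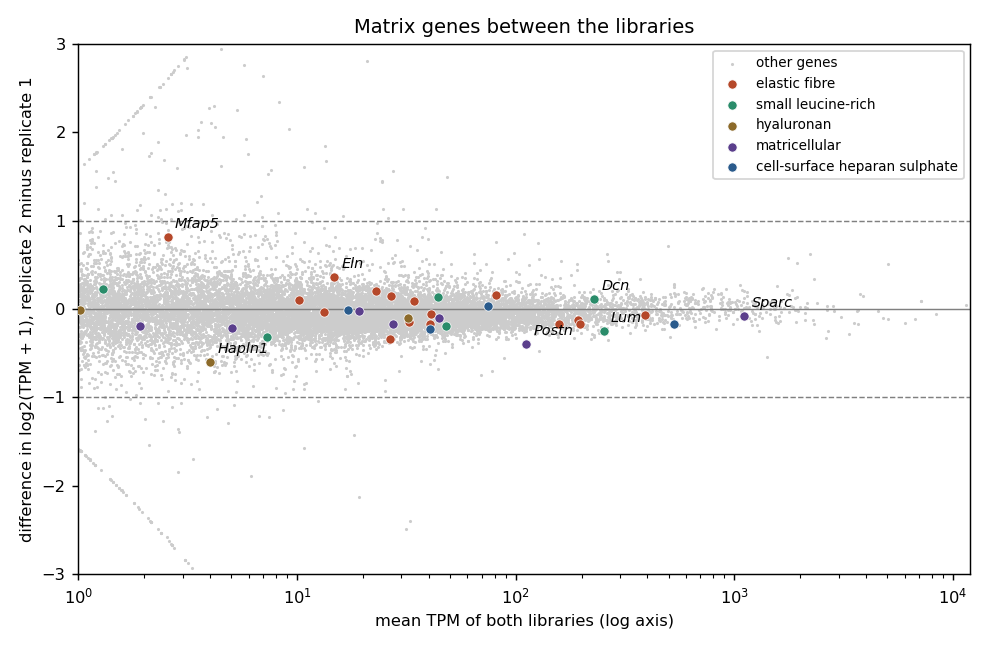
Difference in log2(TPM + 1), replicate 2 minus replicate 1, against the mean TPM of both libraries on a log axis, with the matrix genes at a mean of 1 TPM or more coloured by group over all other genes in grey; 54 genes beyond 3 log2 units are not shown. All 36 coloured points lie between the dashed lines at 1 and -1, from Hapln1 at -0.60 to Mfap5 at 0.82.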

How the data were processed

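Total RNA of 2 embryonic intestines was sequenced with spike-in RNAs. Per the deposited notes, reads were processed on mm10 with GENCODE M4; no aligner or quantifier is named, and the strand setting is not given in the sources used here. The deposited tables give, per gene and transcript, the estimated count (expected count), TPM, the posterior mean TPM and interval bounds (a score on the TPM scale, set around the posterior mean); the transcript tables also give the authors' percent share of each transcript in its gene. TPM is a share per library that includes spike-ins, so a few abundant RNAs can shift every other value.

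Symbols, biotypes, transcript names and gene coordinates came from GENCODE M21 (GRCm38), which named 42462 of 43346 gene identifiers; promoter windows came from RefSeq (GRCm38.p6). Counts were not whole, at a tolerance of 0.005, for 5 matrix genes (Fbn1, Ltbp2, Ltbp3, Loxl2, Tnc), where reads were shared between features. The libraries differed beyond counting noise (chi-square per degree of freedom 14.2 over 19401 genes), so they were counted as 2 libraries; no test between groups was possible. Replicate numbers are those of the labels. Levels were summarised with Python 3.11.15 and pandas 2.3.3; scaling factors came from edgeR 4.0.16 and DESeq2 1.42.0 on rounded counts.

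The 40 genes, the other matrix genes and the marker lists were chosen with earlier results of these data known. All 40 are named; transcripts are named for genes at a mean of 10 TPM or more with a second transcript at 20% or more in both libraries, and for Fbln1, Vcan, Tnc, Postn, Ltbp1, Ltbp4 and Eln; of the other matrix genes the 5 highest and the lysyl oxidase, fibulin, syndecan, glypican and thrombospondin families are named. Genes of the small leucine-rich clusters, Chtf8, Matn2-202 and Fbln2-202 were named in addition, after their values were seen. Alternatives covered thresholds, pseudocount, scaling, the posterior mean and each library alone.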

Additional observations from a re-analysis of the deposited data

How the results depend on the processing

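The number of matrix genes detected ranged from 30 (at 5 TPM) to 40 (at 10 estimated reads, or with no threshold), and was 35 with the posterior mean TPM, 39 at 0.5 TPM and 36 in each library alone. TPM rescaled over nuclear protein-coding genes raised every matrix gene by 1.31-fold, with medians of 39.1 TPM for all 40 genes, 38.8 for elastic fibre, 60.4 for small leucine-rich, 1.33 for hyaluronan, 36.1 for matricellular and 75.3 for cell-surface heparan sulphate genes. With protein-coding transcripts only, an alternative chosen after seeing the data, the medians were 27.2 TPM for all 40, 25.9 for elastic fibre, 43.6 for small leucine-rich and 52.3 for cell-surface heparan sulphate genes, and the level of 3 genes moved by more than 1.5-fold. The posterior mean TPM gave a hyaluronan median of 0.995 TPM. The median over detected genes was 33.2 TPM. Leaving out each library in turn gave medians of 29.5 and 31.5 TPM for all 40 genes, and the same pair of values for elastic fibre genes. The median difference between the libraries stayed negative, from -0.17 with spike-in scaling to -0.04 with TMM. When the rule for differing genes was changed in 1 setting at a time, 0 matrix genes differed. This included a limit of 0.5 on the log2 scale, which 1.61% of all genes at 5 TPM or more passed. With that limit and no filter on mean TPM, only Hapln1 among the matrix genes passed, at -0.60. The share of all genes was not computed for that setting. Nor was it computed for the other changed settings of the rule, the other detection thresholds or the posterior mean. Those counts therefore describe the list and show no trait particular to it. Scaling changed the share of lower calls: 58.3% of 36 genes were lower in replicate 2 with TMM, 72.2% with spike-in scaling and 69.4% as deposited, against 49.5%, 75.0% and 59.8% of all genes with the same scalings. The differences cannot be computed with a library left out. The share of a main transcript moved by more than the spread of the libraries for 15 of 25 genes when taken by estimated reads. No paired analysis was possible because there is 1 group of 2 libraries. Depth limits the low genes most, since Has3 rests on 14 and 20 estimated reads.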
